A study of Mus musculus with 12 samples.

Results

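The naive pluripotency factors examined here are 10 genes, Zfp42, Klf2, Klf4, Klf5, Esrrb, Tfcp2l1, Tbx3, Prdm14, Nr0b1 and Tcl1, chosen by name among the 22911 genes that the RNA-Seq tables list. RNA-Seq was performed on mouse epiblast-like cells (EpiLCs) with 3 libraries for each of 4 genotypes, 12 libraries in all. The controls were female Kdm5c fl/fl (fWT) and male Kdm5c fl Y (mWT) cells, which carry a floxed and intact allele of Kdm5c, a gene on the X chromosome that encodes a histone H3K4 demethylase. The mutants were female Kdm5c Δ/Δ (fKO) and male Kdm5c Δ Y (mKO) cells, which lack the exons for the catalytic JmjC domain. Per the labels, controls are Smcx wild type and mutants Smcx knockout, where Smcx is the older name of Kdm5c, in the strain C57BL/6J, and per the methods the floxed strain had a mixed background. Embryonic stem cells (ESCs) grown with LIF and inhibitors of MEK and GSK3 were differentiated for 48 h in FGF2 at 10 ng/ml and Activin A at 20 ng/ml, and the methods state independent ESC lines for the replicates of a genotype. The comparison asks how much of the naive program is still expressed at that time, and whether that depends on Kdm5c. No ESC library was analysed here, so the levels at 48 h can be ranked and compared between genotypes, but not set against the starting ESCs.

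The naive state of ESCs rests on a network of transcription factors that LIF, through STAT3, and GSK3 inhibition, through release of TCF7L1 repression, keep active. KLF4 and TBX3 are well-known outputs of the LIF side, ESRRB of the GSK3 side, and TFCP2L1 receives both. When FGF and Activin replace the inhibitors, this network is shut down while POU5F1 and SOX2 are kept, and formative genes such as Fgf5, Otx2 and Pou3f1 come up.

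The tables give the mean of each genotype, from which the whole reads of each library were recovered. Letters A, B and C name these libraries within a genotype, from the largest to the smallest size factor, and no letter could be assigned to an ESC line. Normalized counts are reads after division by that factor, and 5342680 to 10848231 reads were recovered per library. The libraries mWT B and mKO A stood apart from the other libraries of their genotypes. The median variation per gene was 7.04 to 12.7 times the sampling noise for pairs with mWT B or mKO A, against 1.46 to 2.24 times for all other pairs. It was 1.46 for mWT A and C, 1.78 for mKO B and C and 1.58 to 2.24 for the female pairs. Whether libraries this close come from separate ESC lines could not be checked, and the female p-values treat them as independent. Libraries mWT A and C also held more reads on olfactory and vomeronasal receptor genes, 12157 and 9174 against 1632 to 4075 in the other libraries. Kdm5c itself was at 2315 to 2429 normalized counts in fWT, 1406 to 1505 in fKO, 2110.1 to 2371 in mWT and 1897 to 1976 in mKO. It was lower in fKO (limma, adjusted p = 4.54e-09) and did not pass the test in males (adjusted p = 0.272). These counts cover the whole gene, with the exons that the mutants retain, so they do not check the male labels. Per the methods, the authors used read tracks of this RNA-Seq to verify that the deleted exons had no reads. The 5 markers of EpiLCs (Fgf5, Otx2, Pou3f1, Dnmt3b and Pou5f1) were expressed in all libraries, with summed levels from 5610.3 to 15119.8 normalized counts. By limma, Fgf5, Otx2 and Pou3f1 were lower in mKO than in mWT, where 3.59% of all genes were called lower. In females Otx2 and Dnmt3b were higher and Pou3f1 and Pou5f1 lower. Pou5f1 is also among the core factors below, so the sum does not show how far the EpiLC state was reached.

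All naive factors were detected in every library at 48 h. Per kilobase of exon, the median of the 10 genes was 25.7 normalized counts in fWT, 87.3 in fKO, 46.3 in mWT and 173 in mKO. The core factors, among them Pou5f1, Sox2 and Nanog, had medians of 1285 in fWT, 1030.0 in fKO, 1036 in mWT and 1038 in mKO over 8 genes. The 10 formative markers with an exon length had medians of 187, 175, 224 and 151 in the same order. The naive factors thus had a median below that of the formative markers in fWT, fKO and mWT, and slightly above it in mKO. Set among the 21251 genes that have an exon length, the median naive factor was at percentile 55.2 in fWT, 72.6 in fKO, 62.4 in mWT and 83.3 in mKO. In fWT, 6 of the 10 lay above the median gene, and in mKO all 10 did.

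**Figure D1:**
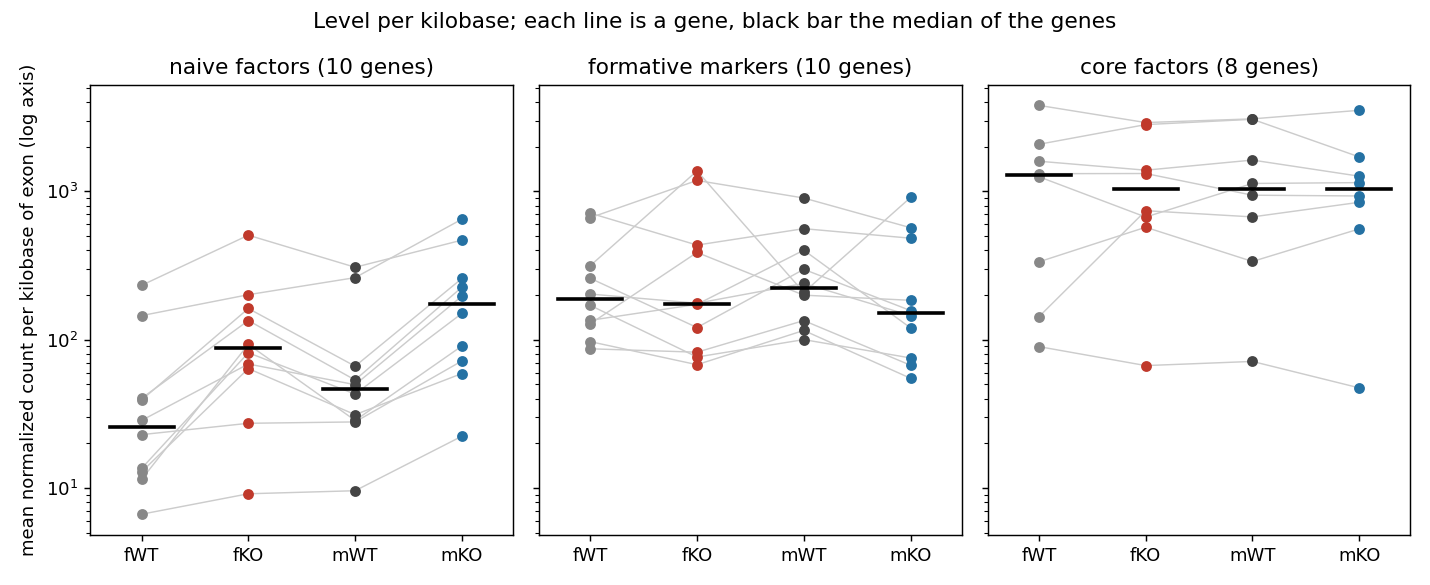
Mean normalized count per kilobase of exon (log axis) in each genotype for the naive factors, the formative markers with an exon length and the core factors, with a line for each gene and a black bar for the median of the genes. The median of the naive factors is 25.7 in fWT and 46.3 in mWT, and 87.3 and 173 in fKO and mKO, while the medians of the core factors lie between 1030.0 and 1285.

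The genes were spread widely around that median. Klf5 had the highest level per kilobase in fWT, 232 normalized counts at percentile 87.2, and Zfp42 followed with 145 at percentile 80.8. Klf2 with 40.2, Esrrb with 39.2, Tfcp2l1 with 28.5 and Tcl1 with 22.9 formed the middle. Tbx3 with 13.5, Nr0b1 with 12.8, Klf4 with 11.4 and Prdm14 with 6.65 were below the median gene in these cells. In mKO the order had changed at the top, where Zfp42 reached 649 and Klf5 469, whereas Prdm14 remained lowest with 22.3.

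In females, 8 of the 10 factors rose in the mutant (limma on log2 of the normalized count + 1, adjusted p under 0.05 over 19570 genes tested), and none fell. The share of all genes called higher was 25.4%, so a call as such was common in this comparison. The median log2 fold change of the 10 factors was 1.51, beside 0.00 for all genes tested. In males 5 factors rose and none fell, where 4.21% of 21870 genes were called higher. The median log2 fold change of the factors was 1.59 in males, beside -0.17 for all genes tested. All 10 estimates were above 0 in both sexes, and the estimates that did not pass the test are given with their values below. In bulk RNA, a larger share of cells that express these genes and more RNA per cell cannot be told apart.

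**Figure D2:**
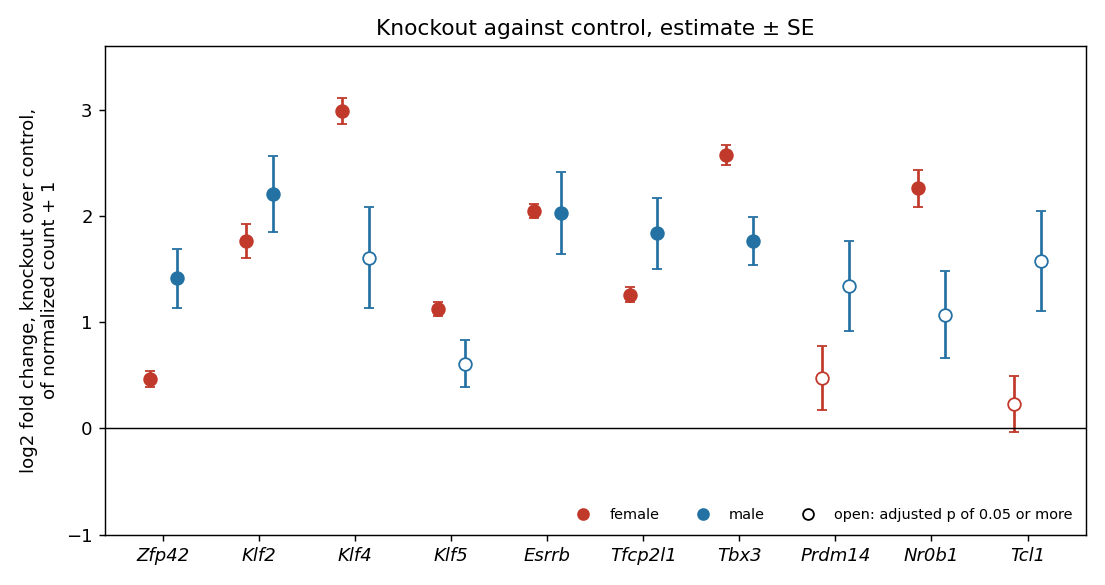
Log2 fold change of mutant over control for each naive factor, on normalized count + 1, with its standard error as bars, in females (red) and males (blue). Filled points passed an adjusted p of 0.05: 8 in females and 5 in males. The male bars are longer than the female bars for every gene.

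Klf2, Klf4 and Klf5 encode Krüppel-like zinc finger factors that act redundantly in ESC self-renewal. Klf4 showed the largest female difference among the naive factors. It was at 34.2, 32.9 and 37.8 normalized counts in the fWT libraries A, B and C, and at 305, 277 and 272 in those of fKO. The groups did not overlap, and the mean was 8.13-fold higher in fKO (log2 fold change 2.99 ± 0.125 SE, limma adjusted p = 1.34e-12). In males Klf4 was at 57.8, 144 and 60.4 in mWT and at 113, 343 and 377 in mKO. Here mWT B was higher than mKO A, so the groups overlapped, and the difference did not pass the test (1.61 ± 0.476 SE, adjusted p = 0.0721).

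Klf2 was at 73.4, 53.8 and 95.6 normalized counts in fWT and at 269.6, 261 and 215 in fKO. Both groups were well separated, with a fold of 3.35 (log2 fold change 1.76 ± 0.16 SE, limma adjusted p = 4.59e-08). In males the values were 67.8, 169.5 and 58.9 in mWT and 312, 462 and 478 in mKO. Each mKO library exceeded each mWT library, and Klf2 rose 4.23-fold (2.21 ± 0.358 SE, adjusted p = 0.00789), the largest male estimate among the naive factors. Klf5, which started from the highest level, had the smallest estimate of the 3 in both sexes. It was at 416, 379.9 and 404 in fWT and 911, 889.7 and 813 in fKO, a 2.18-fold rise (1.12 ± 0.0667 SE, adjusted p = 1.56e-10). The male values of Klf5 were 489.5, 684 and 415 in mWT against 585, 908 and 928 in mKO. They overlapped through mWT B and mKO A, and the test was not passed (0.61 ± 0.222 SE, adjusted p = 0.13).

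Esrrb, Tfcp2l1 and Tbx3 are factors placed downstream of GSK3 inhibition and LIF, and all 3 rose in both sexes. Esrrb encodes an orphan nuclear receptor. Its normalized counts were 234, 235 and 241 in fWT and 1020.3, 936 and 987 in fKO. The fWT libraries were nearly equal, and all fKO libraries lay far above them, with a fold of 4.14 (log2 fold change 2.05 ± 0.0651 SE, limma adjusted p = 3.19e-14). The male libraries were at 261, 673 and 267 in mWT and at 887, 1898 and 1907 in mKO. Within each male genotype 1 library stood apart, yet the groups did not overlap, and Esrrb rose 3.91-fold (2.03 ± 0.388 SE, adjusted p = 0.015).

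Tfcp2l1 encodes a CP2-type transcription factor. It was at 276, 269 and 249 normalized counts in fWT and at 663, 646 and 596 in fKO, a 2.40-fold rise (log2 fold change 1.26 ± 0.0721 SE, limma adjusted p = 9.11e-11). The mWT libraries were at 468, 448 and 467, and Tfcp2l1 is the 1 naive factor for which mWT B was not the highest of them. The mKO libraries were at 832, 2237 and 2399. Groups did not overlap, but mKO A reached less than the other mKO libraries, and the fold of the means was 3.96 (1.84 ± 0.334 SE, adjusted p = 0.0126). Tbx3, a T-box repressor and activator, had 74.4, 70.3 and 73.4 in fWT and 432, 424 and 458 in fKO. That 6.02-fold rise was next to Klf4 in size (2.57 ± 0.0916 SE, adjusted p = 1.45e-13). The male controls already held more Tbx3, with 208, 266 and 217, and the mKO libraries had 529, 973 and 917. All mKO libraries were higher than all mWT libraries, with a 3.50-fold difference and the smallest male adjusted p of the 10 factors (1.76 ± 0.224 SE, adjusted p = 0.00255).

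Zfp42 encodes REX1, a zinc finger protein widely used as a reporter of the naive state. It showed the smallest female rise that passed the test. The fWT libraries were at 259.5, 259 and 266 normalized counts and the fKO libraries at 371, 344 and 369.9. The groups were separate, with a fold of 1.38 (log2 fold change 0.47 ± 0.0739 SE, limma adjusted p = 3.51e-05). In one fit over all 12 libraries, which gives females the larger spread of the males, this call was lost (adjusted p = 0.139). The mWT libraries were at 332, 749.5 and 333 and the mKO libraries at 1318, 1084 and 1105. Zfp42 is the only naive factor for which mKO A was the highest mKO library, and it rose 2.48-fold in males (1.41 ± 0.278 SE, adjusted p = 0.017).

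**Figure D3:**
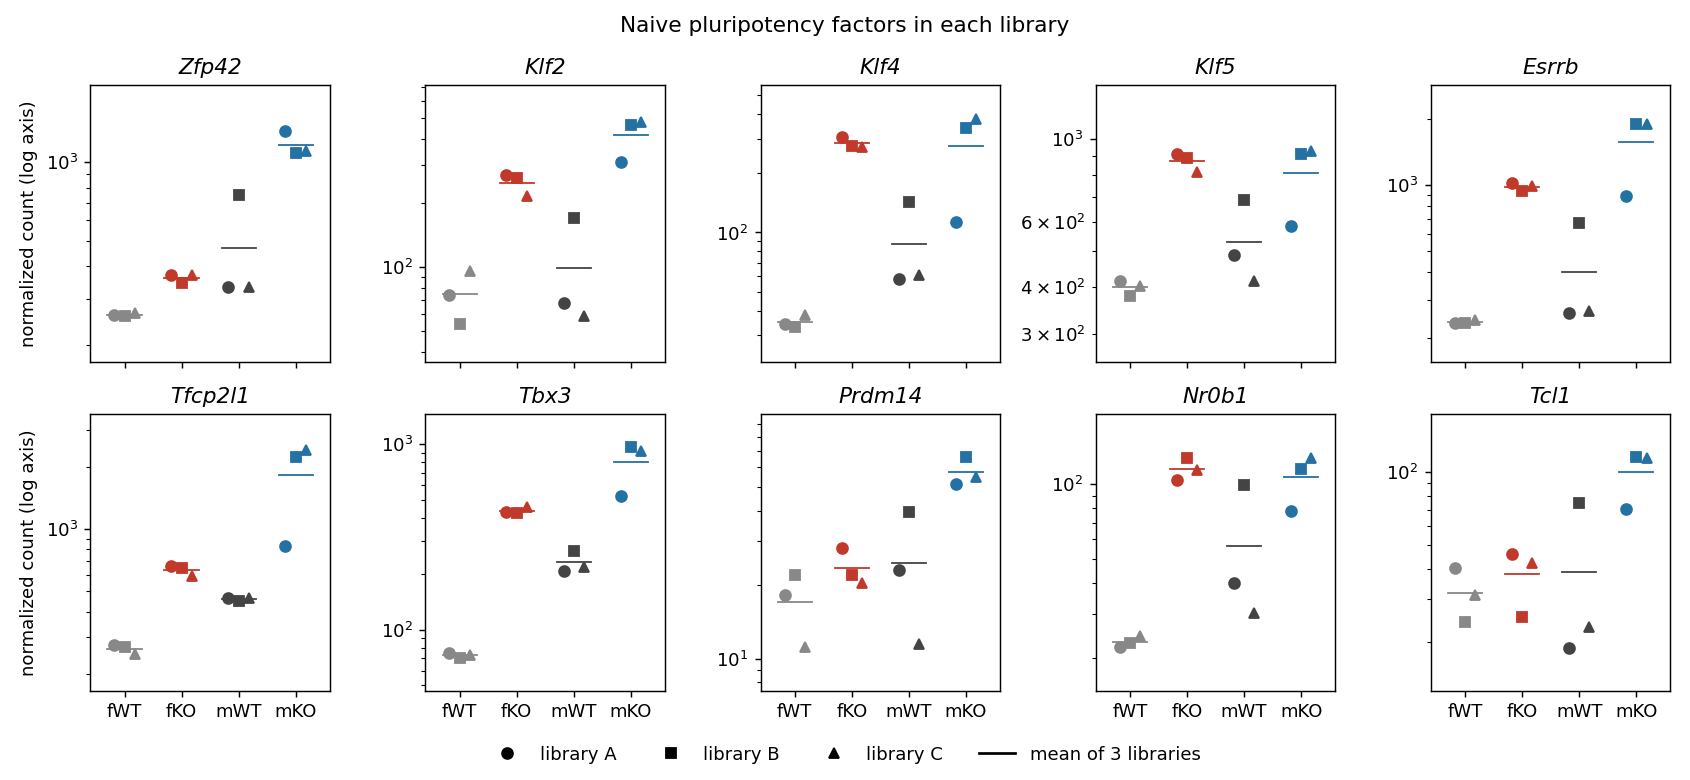
Normalized counts (log axes, scaled per gene) of the 10 naive factors in each library, with circles, squares and triangles for libraries A, B and C and a line for the mean of 3 libraries. In females 8 factors separate without overlap, while in males mWT B lies above the other mWT libraries for 9 factors and mKO A lies below the other mKO libraries for 9. How many of all genes show these patterns was not counted, while 25.4% of all genes were called higher in females.

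Prdm14, Nr0b1 and Tcl1 were the least abundant of the group by counts. Prdm14, which encodes a PR domain protein that represses FGF signalling and de novo DNA methylation, rested on 8 to 65 reads per library. It was at 18.1, 22.0 and 11.1 normalized counts in fWT and 28.2, 21.9 and 20.2 in fKO. These groups overlapped, and no female difference was detectable at this depth (log2 fold change 0.47 ± 0.303 SE, limma adjusted p = 0.218). In males Prdm14 was at 22.9, 39.3 and 11.5 in mWT and 51.1, 65.9 and 54.8 in mKO. The male groups did not overlap, but the estimate did not pass the test (1.34 ± 0.425 SE, adjusted p = 0.0893).

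Nr0b1, on the X chromosome, encodes the orphan nuclear receptor DAX1, a binding partner of POU5F1 and other receptors. It was at 22.1, 23.1 and 24.5 normalized counts in fWT and at 104, 128 and 114 in fKO. The fKO libraries were all far above, with a 4.97-fold rise (log2 fold change 2.26 ± 0.174 SE, limma adjusted p = 4.81e-09). In males the values were 39.9, 99.2 and 30.2 in mWT against 77.9, 116 and 127 in mKO. Library mWT B lay above mKO A, and the difference did not pass the test (1.07 ± 0.411 SE, adjusted p = 0.147). Tcl1 encodes a cofactor of the kinase AKT, the only one of the 10 that is not a regulator of transcription. Its fWT libraries were at 40.2, 24.2 and 31.1 and its fKO libraries at 46.2, 25.3 and 42.4. They overlapped, with an estimate inside 1 SE of 0 (0.23 ± 0.263 SE, adjusted p = 0.512). The male libraries were at 18.9, 74.4 and 23.0 in mWT and at 70.6, 116 and 114 in mKO. mWT B exceeded mKO A by a little, and the test was not passed (1.58 ± 0.473 SE, adjusted p = 0.0747).

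For single genes, an exact permutation test over 3 libraries against 3, two-sided, cannot go below p = 0.10. All 8 factors called in females and all 5 called in males were at that smallest value. Any gene whose groups do not overlap reaches it, so it adds nothing beyond the separation given above.

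Tfcp2l1 and Zfp42 are shown with the part of their promoters that holds motif matches, as the only ones with a match among the promoters searched. Klf2 and Esrrb, which also rose in both sexes, have a promoter entry and no match. Of the 10 naive factors, 7 have an entry in the RefSeq promoter table (GRCm38.p6, 250 bases before to 50 after the start), and Klf5, Tbx3 and Prdm14 have none. The KLF motif GGGCGTGG occurred at 2 places in the Tfcp2l1 promoter, both on the minus strand of the window, and in 5.33% of the 32851 promoters. The KLF motif GGGTGTGG occurred in the Zfp42 promoter, again on the minus strand, and in 3.56% of all promoters. Zfp42 also held TTTGCAT, a part of the octamer bound by POU5F1, as did 4.63% of all promoters. Both strands were searched, and these motifs did not overlap each other. The windows below run 5′ to 3′ along the gene, with the matches in capitals. They start 73 and 197 bases before the gene starts.
Tfcp2l1 (GRCm38.p6, chr1:118627872-118627917, plus strand): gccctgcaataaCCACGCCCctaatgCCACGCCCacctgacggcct
Zfp42 (GRCm38.p6, chr8:43307065-43307206, minus strand): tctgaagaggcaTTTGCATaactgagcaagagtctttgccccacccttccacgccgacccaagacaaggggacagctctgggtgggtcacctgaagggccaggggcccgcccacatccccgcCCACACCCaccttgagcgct

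The other motifs searched occurred in none of the 7 promoters. TCAAGGTCA, bound by estrogen-related receptors, occurred in 0.423% of all promoters, and the STAT motif TTCCNGGAA in 1.15%. For TCF, the letters CTTTGAT occurred in 3.73% of promoters. The other TCF form searched, CTTTGTT, occurred in 5.85%. CCATNTT, a part of the YY1 and REX1 motif, was in 16.1%. The matches describe these letters in these windows, and binding was not measured. On mm9, the build of the tables, the genes lie apart from each other. Zfp42 is at chr8:44380422-44392363 and Klf2 at chr8:74842932-74845555. Esrrb at chr12:87702067-87862578 and Tcl1 at chr12:106454967-106460947 share a chromosome too, as do Tfcp2l1 at chr1:120524522-120581744 and Prdm14 at chr1:13103538-13117244. Klf4 is at chr4:55540013-55545347, Tbx3 at chr5:120120678-120134733, Klf5 at chr14:99697910-99712624 and Nr0b1 at chrX:83437103-83441286.

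Some naive factors differed between the controls of the sexes. Klf4, Tfcp2l1 and Tbx3 were lower in fWT than in mWT (limma, adjusted p under 0.05), the other 7 did not pass the test, and the median of the 10 log2 differences was -0.67, beside -0.17 for all genes. Of the 21852 genes tested, 10.7% were called higher in fWT and 11.2% lower. Tbx3 differed most, with a mean of 72.7 ± 2.17 normalized counts in fWT and 230.4 ± 30.9 in mWT (SD, n = 3). Its log2 difference was -1.64 ± 0.14 SE (limma adjusted p = 1.75e-05). Tfcp2l1 was at 265 ± 13.8 against 461 ± 11.4 (SD, n = 3), with -0.80 ± 0.0925 SE (limma adjusted p = 0.000151), and its call was lost in a fit over all 12 libraries (adjusted p = 0.0537). Klf4 was at 35.0 ± 2.52 against 87.3 ± 48.9 (SD, n = 3), and its call (-1.16 ± 0.318 SE, limma adjusted p = 0.023) was lost without any 1 of the fWT libraries, with adjusted p values up to 0.0824. Zfp42, Esrrb and Nr0b1 also had no fWT library as high as any mWT library, but did not pass the test (adjusted p = 0.0573, 0.155 and 0.0738). Markers of other cell types also differed between the controls. Of 12 markers of primitive and visceral endoderm, 10 were lower in fWT, with sums of 579.7 to 650.4 normalized counts in fWT and 3238 to 5775 in mWT and a median log2 difference of -2.54. Of 9 fibroblast markers, 3 were higher in fWT. The part of these cells in the control differences was not tested.

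The order of the 4 genotypes was the same for Tfcp2l1 and Tbx3, with mKO above fKO, fKO above mWT and mWT above fWT, and no neighbours in that order overlapped. Esrrb and Klf2 had the same order of means. For Esrrb mKO and fKO overlapped, and for Klf2 mWT and fWT did. Klf4, Klf5 and Nr0b1 had their highest mean in fKO, though fKO overlapped mKO for each. Zfp42, Prdm14 and Tcl1 had a higher mean in mWT than in fKO, again with overlapping libraries. In all 10 genes the lowest mean was that of fWT.

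The mutant effect was compared between the sexes with the interaction of sex and genotype over all 12 libraries. Tbx3 alone passed (limma adjusted p = 0.0382), with a log2 effect in males that was -0.81 ± 0.258 SE relative to that in females, where 21.2% of 22012 genes were called in either direction. Its call was lost without any 1 of the female libraries and without mWT B or mWT C, with adjusted p values up to 0.0857. Zfp42 came next, with a male effect larger by 0.95 ± 0.323 SE (adjusted p = 0.0516), and the remaining 8 had adjusted p values of 0.0952 or more. For Esrrb the estimated difference was -0.02 ± 0.454 SE, an error too wide to call the effects equal. When mWT B and mKO A were left out together, a choice made after seeing the data, 8 of the 10 factors passed, 6 with a larger male and 2 with a larger female effect. In that fit 10013 genes were called, against 4674 in the main fit, so a call as such was common.

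Since mWT B and mKO A stood apart, the male results are given without them too. Library mWT B had the highest mWT value for 9 of 10 factors, and its ratio to the mean of mWT A and C was 2.36 in the median and reached 3.55 for Tcl1. Library mKO A had the lowest mKO value for 9 of 10, with a median ratio of 0.627 to the mean of mKO B and C and of 0.314 for Klf4. Compared with mKO A, mWT A and C were lower for all 10 factors, and mWT B for 6. Without both libraries, all 10 factors rose in males, where 17.6% of 21775 genes were called higher. Without mWT B alone 9 factors were called, beside 6.57% of all genes called higher, and without mKO A alone 8, beside 9.76%. The count of factors was 2 without mWT A, 1 without mWT C, 5 without mKO B and 4 without mKO C, where 1.25%, 1%, 1.51% and 1.36% of all genes were called higher. Tbx3 was the 1 factor called without any 1 male library. When mWT A and C and mKO B and C were each averaged into 1 library, no factor passed (limma, smallest adjusted p = 0.0546 for Tbx3), while 5 had an unadjusted p under 0.05. With mWT B as the lone control no gene of any kind passed, while 2802 of 19036 genes, 3 naive factors among them, had an unadjusted p under 0.05. All 10 male estimates stayed above 0 in each of these fits. In females, the 8 calls held without any 1 library, and no female libraries were averaged.

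**Figure D4:**
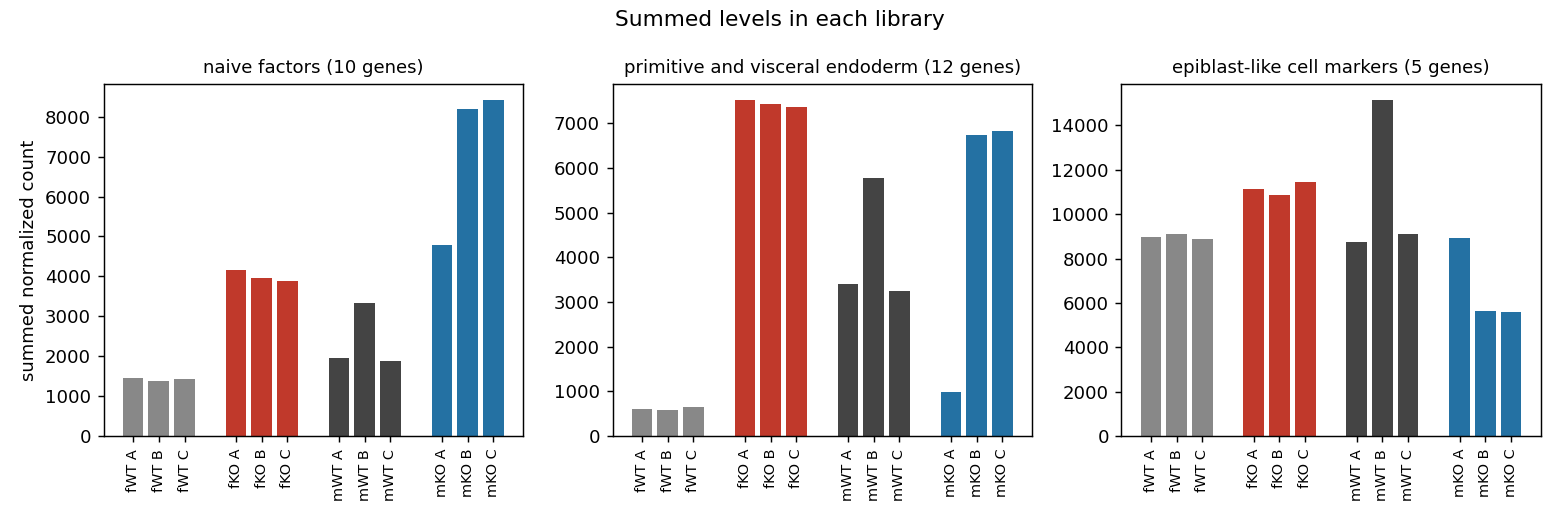
Summed normalized counts in each of the 12 libraries for the 10 naive factors, the 12 markers of primitive and visceral endoderm and the 5 markers of EpiLCs, with bars from 0. The naive sum is 1369 to 1449 in fWT and 3889 to 4151 in fKO, and the endoderm sum is 998 in mKO A against 6735 and 6811 in mKO B and C.

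Markers of other cell types moved with these results in some libraries, and their part in the results was not tested. The 12 markers of primitive and visceral endoderm, a lineage that arises beside the epiblast, all rose in fKO, from summed levels of 579.7 to 650.4 in fWT to 7349.8 to 7506 in fKO. Of all genes, 25.4% were called higher in that comparison. In mWT the sum was 3410 and 3238 in libraries A and C and 5775 in B, and in mKO it was 998 in A and 6735 and 6811 in B and C. Single markers did not all follow the sum. In mKO B and C, Cubn was at 3477 and 3663, against 1157 to 2815 in mWT. Gata6 was at 212 and 205 there, against 296 to 412 in mWT, and Sox17 at 116 and 111, against 267 to 296. Within mWT, 9 of the 10 naive factors were highest in the library where the endoderm sum was highest, the exception being Tfcp2l1. Within mKO, 9 of the 10 were lowest where that sum was lowest, the exception being Zfp42 at 1318 in mKO A. In mWT B the sums of formative markers (23786 against 14932 and 14827) and core factors (25801 against 22259 and 22009) were highest too. The trophoblast sum was lowest there. In mKO A the sums of trophoblast markers (5898 against 10915 and 10052) and germ cell genes (1595 against 3882 and 3708) were lowest too. Those of formative markers and core factors were highest there. How many of all genes show these patterns was not counted. Without mWT B and mKO A, 7 of the 12 endoderm markers were higher and 4 lower in males. In that fit 17.6% of all genes were called higher and a larger share lower. With all libraries, 0 of the 12 were higher and 2 lower, beside 4.21% and 3.59% of all genes. No gene of the list was at 0 in every library of a genotype, though Ttr was at 0, 1.10 and 0 in fWT A, B and C. Cubn, an endocytic receptor of visceral endoderm, was at 79.5 to 90.0 in fWT and 2987 to 3022 in fKO (log2 fold change 5.14 ± 0.0668 SE, limma adjusted p = 1.12e-19). Pdgfra, a marker of primitive endoderm, rose in fKO from 27.4 to 36.7 in fWT to 531 to 586 and fell in males from 250.1 to 301 in mWT to 40.6 to 128 in mKO (limma adjusted p = 9.48e-15 and 0.016).

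The remaining marker lists were mixed. Their counts stand beside 25.4% of all genes called higher and 24.6% lower in females, and 4.21% and 3.59% in males. Trophoblast markers had 2 of 9 higher and 4 lower in females and 7 higher in males, and their summed level was 4769 to 5366 in fWT, 3844 to 4024 in fKO, 2113 to 3468 in mWT and 5898 to 10915 in mKO. Of 9 fibroblast markers, listed for feeder cells, 3 were lower in females and 4 higher in males, with sums of 2329 to 2377 in fWT, 812 to 869 in fKO, 684 to 876 in mWT and 4299.7 to 4739.6 in mKO. Of 5 germ cell genes, 3 were higher and 1 lower in females, and 1 was higher and 1 lower in males. No gene of the 2-cell-like list passed in either sex by limma or limma voom, where 6 were tested and 1 had an unadjusted p under 0.05 in each sex, but the sum was 578 in mKO A against 82.1 and 87.9 in mKO B and C. Their part in the naive levels was not tested either.

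A further list held 15 genes of the naive state, Nanog among them. Of these, 11 rose and Nanog and Tet2 fell in females, where 25.4% of all genes were called higher and 24.6% lower. In males 7 rose, Dppa4 fell and 7 did not pass the test, where 4.21% of all genes were called higher and 3.59% lower. Without mWT B and mKO A, 9 rose and 2 fell in males, where 17.6% of all genes were called higher and a larger share lower. Their median log2 fold change was 1.20 in females and 0.69 in males. Tdh, which encodes the threonine dehydrogenase of ESCs, went from 52.3 to 59.4 normalized counts in fWT to 885 to 989 in fKO, a 16.3-fold rise. In males it was 70.4 to 325 in mWT and 312 to 569 in mKO, with an adjusted p of 0.0495 (limma). Nr5a2, a nuclear receptor that can act upstream of Pou5f1, rose 11.4-fold in females and 2.83-fold in males (limma adjusted p = 4.54e-12 and 0.0498). Pecam1, a cell adhesion gene of naive ESCs, rose 4.85-fold in females (adjusted p = 3.04e-12), while its male fold of 1.77 did not pass the test (adjusted p = 0.137).

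Nanog, a pluripotency factor expressed in both states, went the other way in females, with 2742 to 2892 normalized counts in fWT and 1465 to 1547 in fKO (log2 fold change -0.90 ± 0.0527 SE, limma adjusted p = 1.21e-10). In males it was at 2432 to 2599 in mWT and 2152 to 3254 in mKO, and the groups overlapped. Among the 8 core factors, which include Nanog, 3 rose and 4 fell in females, and 1 rose and 1 fell in males, where 2 were higher and 5 lower without mWT B and mKO A. These counts stand beside 25.4% of all genes called higher and 24.6% lower in females, and 4.21% and 3.59% in males. Without mWT B and mKO A, 17.6% were called higher in males and a larger share lower. Sox2 rose in females from 331 to 363 in fWT to 1670.0 to 1962 in fKO, while mWT was already at 1364 to 2197.

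The signalling lists that act on these factors were mixed. Among all genes, 25.4% were called higher and 24.6% lower in females, and 4.21% and 3.59% in males. Without mWT B and mKO A, 17.6% were called higher in males and a larger share lower. Of 11 genes of LIF and STAT3 signalling, 5 rose and 5 fell in females and 4 rose in males, where 9 rose and 1 fell without mWT B and mKO A. Socs3, a direct STAT3 target and feedback inhibitor, rose 2.40-fold in females and 4.56-fold in males (limma adjusted p = 4.43e-09 and 0.0323). Its mKO libraries were uneven, at 248 in A and 1017 and 938 in B and C. Lifr, the LIF receptor subunit, was at 104 to 115 in fWT and 981 to 1029 in fKO. In males it was at 704 to 855 in mWT and 277 to 624 in mKO, a difference that did not pass the test (adjusted p = 0.109). Of 9 genes of GSK3 and TCF signalling, 2 rose and 3 fell in females, and Tcf7 alone fell in males. Without mWT B and mKO A, 5 of these 9 were higher and 2 lower in males. Tcf7, a TCF family member, fell in both sexes, with log2 fold changes of -0.30 in females and -0.83 in males (adjusted p = 0.00161 and 0.00877). Axin2, a feedback target of the pathway, had log2 fold changes of -0.64 in females (adjusted p = 0.000172) and 0.46 in males (adjusted p = 0.352).

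Of 9 genes of FGF and ERK signalling, 7 rose and 2 fell in females, and 2 rose and 1 fell in males, or 5 and 3 without mWT B and mKO A. The shares of all genes called higher and lower were 25.4% and 24.6% in females and 4.21% and 3.59% in males. Without mWT B and mKO A, 17.6% were called higher in males and a larger share lower. Egr1, an immediate early target of ERK, was at 73.6 to 76.7 normalized counts in fWT and 661 to 736 in fKO, and in males at 38.8 to 99.2 in mWT and 342, 85.1 and 86.9 in mKO. Spry4, a feedback inhibitor, rose 6.37-fold in females (limma adjusted p = 4.91e-14) and had a fold of 1.08 in males (adjusted p = 0.638).

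The 12 formative markers were split, with 5 higher and 6 lower in females and 1 higher and 4 lower in males. Among all genes, 25.4% were called higher and 24.6% lower in females, and 4.21% and 3.59% in males. Dnmt3l, a cofactor of de novo DNA methylation, rose in both sexes, 4.36-fold and 4.37-fold (limma adjusted p = 2.29e-14 and 0.000833). Otx2, a driver of the formative state, was at 422 to 506 normalized counts in fWT and 546 to 655 in fKO, where it rose (adjusted p = 0.00126). In males Otx2 fell from 1139.6 to 1662 in mWT to 368 to 429.8 in mKO (adjusted p = 0.000508). Without mWT B and mKO A, a choice made after seeing the data, 3 formative markers were higher and 9 lower in males. Among the naive factors 10 were higher and 0 lower in that fit. There 17.6% of all genes were called higher and a larger share lower. With mWT A and C and mKO B and C each averaged, no naive factor passed. The median log2 fold change of the formative markers was -0.13 in females and -0.81 in males, beside 1.51 and 1.59 for the naive factors.

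Among 11214 other genes with a mean of at least 50, those whose levels over the 12 libraries were most like Zfp42 were Wee1, Kidins220, Asap3, Pccb and Cbx7, with Pearson r from 0.937 to 0.955 on the log2 scale. The naive factors were less like it, from 0.553 for Klf5 to 0.864 for Tcl1, and Prdm14 had too low a mean to be included. The libraries share genotypes and scaling, so these values are a description.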

How the data were processed

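RNA-Seq of 12 libraries, 3 for each of 4 genotypes, was analysed from 2 tables, 1 for each sex. In these the authors deposited signal values, the average normalized count of every genotype. Per the methods, RNA was depleted of ribosomal RNA and reads were mapped to mm9 with TopHat2 (2.1.0), keeping unique matches. The submitters' processing notes also name Bowtie2, DESeq and Cuffdiff, and the gene annotation is not given in the sources used here. The tables also hold the authors' own fold changes, p-values and adjusted p-values, which were not used.

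Each mean is a sum of whole reads over the 3 libraries, each divided by its size factor. The reads were solved from the means wherever the mean did not exceed 10000, which left out 51 to 77 genes per genotype. In mKO, 17 genes with several solutions were dropped, and 22806 genes were recovered in all 12 libraries, with all 10 naive factors among them. The solver gave the right reads on simulated data. Size factors were 0.988 to 0.999 times those of a joint normalization, so levels could be set side by side across the sexes.

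Limma (3.58.1, R 4.3.3) with an intensity trend was fitted to log2(normalized count + 1), a fold change scale that understates low genes, within each sex, for genes with at least 1 read. The interaction was fitted over 12 libraries, with Benjamini-Hochberg adjustment and a threshold of 0.05. The fits were tested on simulated data. Alternatives were a pseudocount of 0.1, a minimum mean of 10, limma voom, scaling by recovered reads, 1 fit over 12 libraries, and leaving out libraries. The depth of each library sets the counting error, and PCR copies are not marked. The p-values measure the spread between these libraries. Exon lengths came from GENCODE vM1 on mm9, for 93.2% of genes, and promoters from RefSeq (GRCm38.p6). The members and lists were chosen with earlier results of these data known. All members were named, and from other lists up to 4 genes with the largest log2 fold change among those that passed in either sex with a mean of at least 10. One gene that this rule names is not reported here. Software was matplotlib 3.10.9, numba 0.67.0, scipy 1.17.1, pandas 2.3.3 and numpy 2.4.6 under Python 3.11.15.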

Additional observations from a re-analysis of the deposited data

Results flagged for a closer look

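The mutant effect differed between the sexes by the interaction test (limma adjusted p under 0.05) for the genes below, given as the male minus the female log2 fold change. Among the naive factors this was Tbx3 alone, with -0.81 (adjusted p = 0.0382). Of further naive state genes, Tdh had -2.03 (adjusted p = 0.0298), Nr5a2 -1.73 (adjusted p = 0.031) and Pecam1 -1.46 (adjusted p = 0.0117). In the signalling lists, Lifr had -3.97, Spry4 -2.56, Egr1 -1.96 and Tcf7 -0.52, while Axin2 had 1.10. Of core factors and formative markers, Nanog had 0.90, Sox2 -2.01 and Otx2 -2.08. The endoderm markers Cubn and Pdgfra had -5.05 and -5.91.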

How the results depend on the processing

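The female calls of 8 naive factors stayed at 8 in the alternatives, except for 7 in the fit over 12 libraries, and all estimates kept their sign in both sexes. Of the 5 male calls and 1705 genes called in males, 10 and 4785 were called in the fit over 12 libraries, 10 and 9351 without mWT B and mKO A, 0 and 0 without mWT A and C, and 0 and 146 with those pairs averaged, the last 3 settings chosen after seeing the data. Leaving out 1 library gave 1 to 9 male factors and 333 to 4691 genes. Between the controls, 3 factors and 4785 genes became 5 factors with scaling by recovered reads, 7 factors without mWT A and C (4 in the fit over 12 libraries, where Zfp42 and Nr0b1 were called and Tfcp2l1 was not), 10343 genes without mWT B and mKO A and 3151 genes with the pairs averaged. Leaving out 1 library gave 2 to 5 factors and 2703 to 10343 genes. The interaction called 1 factor and 4674 genes. This became 2 factors with a minimum mean of 10, 0 with limma voom, 8 factors and 10013 genes without mWT B and mKO A and 3 factors without mWT A and C. Leaving out 1 library gave 0 to 2 factors and 3554 to 7333 genes. Estimates for single factors changed sign in 7 of 140 fits between the controls and in 6 of 190 of the interaction. The cause of these changes was not tested. Where 1 library remained in a genotype, it was assumed to vary like the others. Exon length from the longest transcript moved the Esrrb level per kilobase in fWT from 39.2 to 55.1. No paired analysis was possible because the recovered libraries carry no replicate numbers.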
